A study of Mus musculus with 2 samples.

Results

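Messenger RNAs for glycolysis and the response to low oxygen were examined in cells of mouse vein grafts, which are veins implanted into the circulation. The set holds 37 genes, chosen by gene symbol from a fixed list, out of 32285 genes in the count files. The list was drawn up with earlier results of these data known. It covers glucose uptake, the enzymes from hexokinase to pyruvate kinase, the handling of lactate and pyruvate, the oxygen sensing system and genes that low oxygen induces. Of these symbols only Aldoa stood beside 2 gene identifiers. ENSMUSG00000030695, with 163506 UMIs, was used and ENSMUSG00000114515, with 12 UMIs, was not, and the annotation lists both as protein coding. Levels are given in CPM, counts of UMIs (unique molecular identifiers, 1 per captured RNA molecule) scaled to a total of 1000000 per cell class and library. CPM is a share of the RNA of a class, so a lower share and more RNA from other genes cannot be told apart.

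Glycolysis splits glucose into pyruvate in the cytosol and yields ATP without oxygen. Lactate dehydrogenase then turns pyruvate into lactate, which leaves the cell through monocarboxylate transporters. When oxygen is plentiful, prolyl hydroxylases of the EGLN family mark the alpha subunits of the hypoxia-inducible factors (HIF) for destruction. When oxygen is scarce, HIF-1 alpha (Hif1a) and HIF-2 alpha (Epas1) persist and raise the transcription of genes with hypoxia response elements. Much of this control acts on protein, so the RNA of Hif1a and Epas1 does not report HIF activity. Endothelial cells and neutrophils are known for drawing much of their ATP from glycolysis, and vein grafts pass through a spell without blood flow when they are moved.

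The series has 2 samples, 1 library each of conventional and No-Touch vein grafts, the latter a name used in surgery for veins moved along with the tissue around them. Both came from C57BL6/J mice of 10 to 12 weeks of age, and the labels name no allele, drug or time after grafting that sets the groups apart. For both, tissue was dissolved in papain, followed by collagenase I with dispase II, and live nucleated cells without CD45, the antigen of leukocytes, were sorted for 10x Genomics capture. The numbers of mice and grafts behind each library are not given in the sources used here. With 1 library per group there is no replicate check and no test. Every difference below compares these libraries, and every interval is exact at 95% and covers counting error only.

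After filtering, 9583 conventional and 10462 No-Touch cells were kept, with a median of 16282 and 27457.5 UMIs per cell, a depth ratio of 1.69. Cells were assigned to classes by markers that are not in the gene set, which placed 19035 of 20045. The fibroblast-like class, carrying Dcn, Lum and Col1a1, held 6187 conventional and 8269 No-Touch cells. The mural-like class (Rgs5, Myh11, Acta2), the smooth muscle cells and pericytes around vessels, held 891 and 476. Blood endothelial-like cells (Cdh5, Pecam1, Vwf) numbered 800 and 382, and lymphatic endothelial-like cells (Prox1, Lyve1, Flt4) 309 and 285. These 4 classes, with at least 200 cells in each library, were compared between libraries, and 2 smaller ones were described. The smaller ones were Schwann-like cells of nerves (Sox10, S100b, Cdh19; 150 and 212) and neutrophil-like cells (S100a8, S100a9, Csf3r; 437 and 78). The neutrophil-like cells carried Ptprc, the gene of CD45, at 692 and 1090 CPM in spite of the sort, against at most 3.55 CPM in the 4 compared classes. The libraries shared 22 cell barcodes. The suffix is left out below.

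The promoters of 4 genes are shown first because their products mark different points of the pathway and because the pentamer ACGTG, the core of the hypoxia response element, occurs in each. Slc2a1 encodes the glucose transporter GLUT1, Hk2 hexokinase 2, Ldha the lactate dehydrogenase A subunit and Slc16a3 the lactate exporter MCT4. The sequences are the 250 bases before the RefSeq gene start on GRCm38.p6, written 5′ to 3′ on the strand of the gene. They lie at chr4:119108495-119108744 on the plus strand (Slc2a1), chr6:82774455-82774704 on the minus strand (Hk2), chr7:46845554-46845803 on the plus strand (Ldha, the upstream of its listed starts) and chr11:120948817-120949066 on the plus strand (Slc16a3). Capitals mark ACGTG or its reverse complement CACGT, which overlap where they form CACGTG.
Slc2a1: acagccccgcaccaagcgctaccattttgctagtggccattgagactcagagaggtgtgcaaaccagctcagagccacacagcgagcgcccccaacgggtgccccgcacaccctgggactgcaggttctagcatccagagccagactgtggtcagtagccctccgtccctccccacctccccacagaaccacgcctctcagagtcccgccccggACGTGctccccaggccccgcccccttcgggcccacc
Hk2: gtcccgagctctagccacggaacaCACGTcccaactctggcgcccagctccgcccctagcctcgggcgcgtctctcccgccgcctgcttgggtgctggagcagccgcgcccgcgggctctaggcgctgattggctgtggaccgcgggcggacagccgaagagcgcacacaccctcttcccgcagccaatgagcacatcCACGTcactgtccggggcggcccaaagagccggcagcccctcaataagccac
Ldha: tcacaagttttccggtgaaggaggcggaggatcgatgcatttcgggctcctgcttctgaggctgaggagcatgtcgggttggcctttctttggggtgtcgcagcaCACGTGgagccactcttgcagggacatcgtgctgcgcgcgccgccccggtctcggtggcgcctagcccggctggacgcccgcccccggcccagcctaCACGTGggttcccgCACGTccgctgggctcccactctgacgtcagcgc
Slc16a3: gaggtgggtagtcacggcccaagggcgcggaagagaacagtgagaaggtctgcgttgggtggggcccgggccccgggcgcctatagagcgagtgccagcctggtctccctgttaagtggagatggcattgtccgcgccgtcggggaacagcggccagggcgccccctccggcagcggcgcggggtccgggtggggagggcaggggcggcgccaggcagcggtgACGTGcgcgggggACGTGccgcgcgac

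By these letters Slc2a1 had 1 match, Hk2 2, Slc16a3 2 and Ldha 5, counting both strands. RefSeq promoters were matched by symbol to 33 of the 37 genes. Of the 33, 20 (60.6%) had at least 1 match on either strand in any of their listed promoters, against 18.5% of 27025 genes counted likewise. Counted by single promoter, 16.6% of 32851 promoters of the same length had one. Some genes also had a listed start without a match, as did Ldha at its downstream start. A match is a description of the letters and does not show that HIF binds there. Among the genes found lower in No-Touch fibroblasts below, 8 had a promoter sequence and 4 of them a match. Of the 18 genes with a promoter that were tested there without being lower, 12 had one.

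Across the 6 cell classes, neutrophils stood highest for most of the set. Of 36 genes that reached 10 CPM in some class and library, 22 had their highest level in neutrophils in both libraries, whereas 12.2% of 11730 genes over the same limit did. For 21 of the 22 both neutrophil values exceeded every value of the other classes. They included Slc2a1, Gapdh (glyceraldehyde-3-phosphate dehydrogenase), Pkm (pyruvate kinase), Ldha, Slc16a3 and Mif, a cytokine. Some margins were small, as for Hk1 and P4ha1, which in conventional neutrophils were at 1.10 times the next class. Summed over 15 genes for the 10 enzyme steps from hexokinase to pyruvate kinase, neutrophils had 7429 conventional and 6339 No-Touch CPM. Fibroblasts had 2506 and 1809 CPM, mural cells 2504 and 2375, blood endothelial cells 2573 and 2367, lymphatic endothelial cells 2148 and 1774, and Schwann cells 1502 and 1259. Per cell the order was different, as neutrophils held few UMIs (median 2734 and 4486). The same genes summed to 20.8 and 30.0 UMIs per neutrophil and to 56.0 and 63.2 UMIs per fibroblast.

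**Figure D1:**
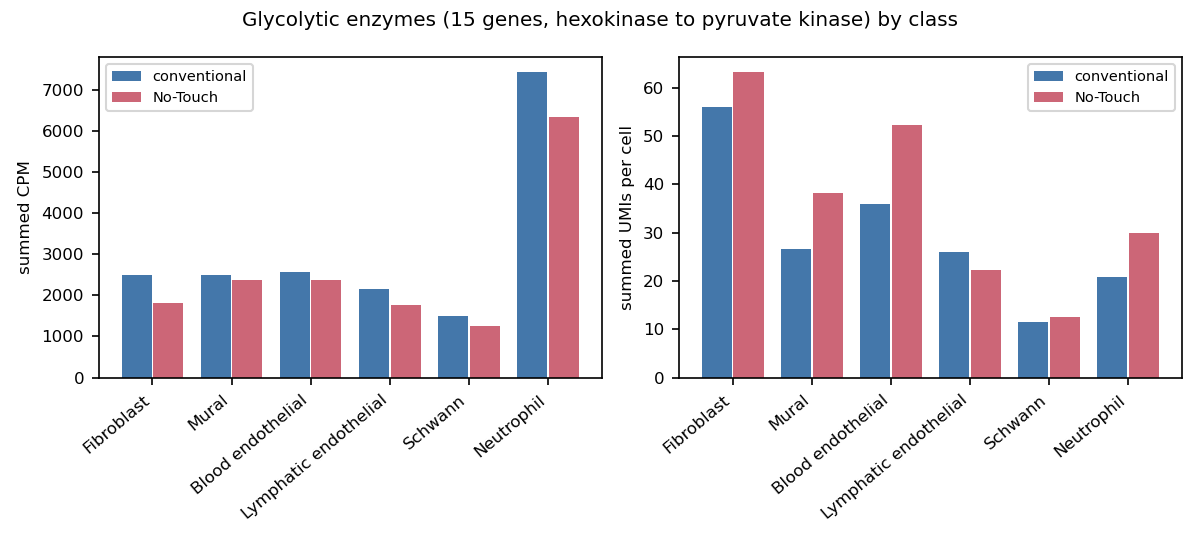
Summed level of 15 glycolytic enzyme genes in 6 cell classes, as CPM (left, vertical axis from 0) and as UMIs per cell (right), with 1 bar per library. Neutrophils stand highest in CPM (7429 and 6339), and fibroblasts stand highest per cell (56.0 and 63.2).

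Other genes had their highest level in another class in both libraries: 3 in fibroblasts (7.6% of all genes), 2 in blood endothelial cells (8.41%), 1 in mural cells (7.71%), 4 in Schwann cells (24.4%) and 0 in lymphatic endothelial cells (10.5%). Fibroblasts led for Hk2 (276 and 168 CPM, with neutrophils at 185 and 48.8), for Slc16a1, the lactate transporter MCT1 (20.8 and 25.4 CPM), and for P4ha2, a collagen prolyl hydroxylase (99.4 and 99.3 CPM). Blood endothelial cells led for Pfkfb3, which makes the fructose-2,6-bisphosphate that activates phosphofructokinase, at 464 and 248 CPM, and for Hif1a at 583 and 412 CPM. Mural cells led for Epas1 at 501 and 335 CPM, with blood endothelial cells next at 356 and 279. Schwann cells led for Ldhb, the lactate dehydrogenase B subunit (204 and 118 CPM), for Aldoc, a brain-type aldolase (91.6 and 6.17 CPM), for the oxygen sensor Egln1 (113 and 75.4 CPM) and for Pfkm (17.5 and 12.8 CPM). Ndrg1, a hypoxia-induced gene with a known role in myelinating nerve, was at 870 and 537 CPM in Schwann cells and at 734 and 629 CPM in lymphatic endothelial cells, and the class order differed between libraries. Fibroblasts had 290 and 312 CPM and mural cells 104 and 101 CPM of it. Car9, the membrane carbonic anhydrase often used to mark hypoxic tumour cells, did not exceed 3.67 CPM in any of the 6 classes.

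**Figure D2:**
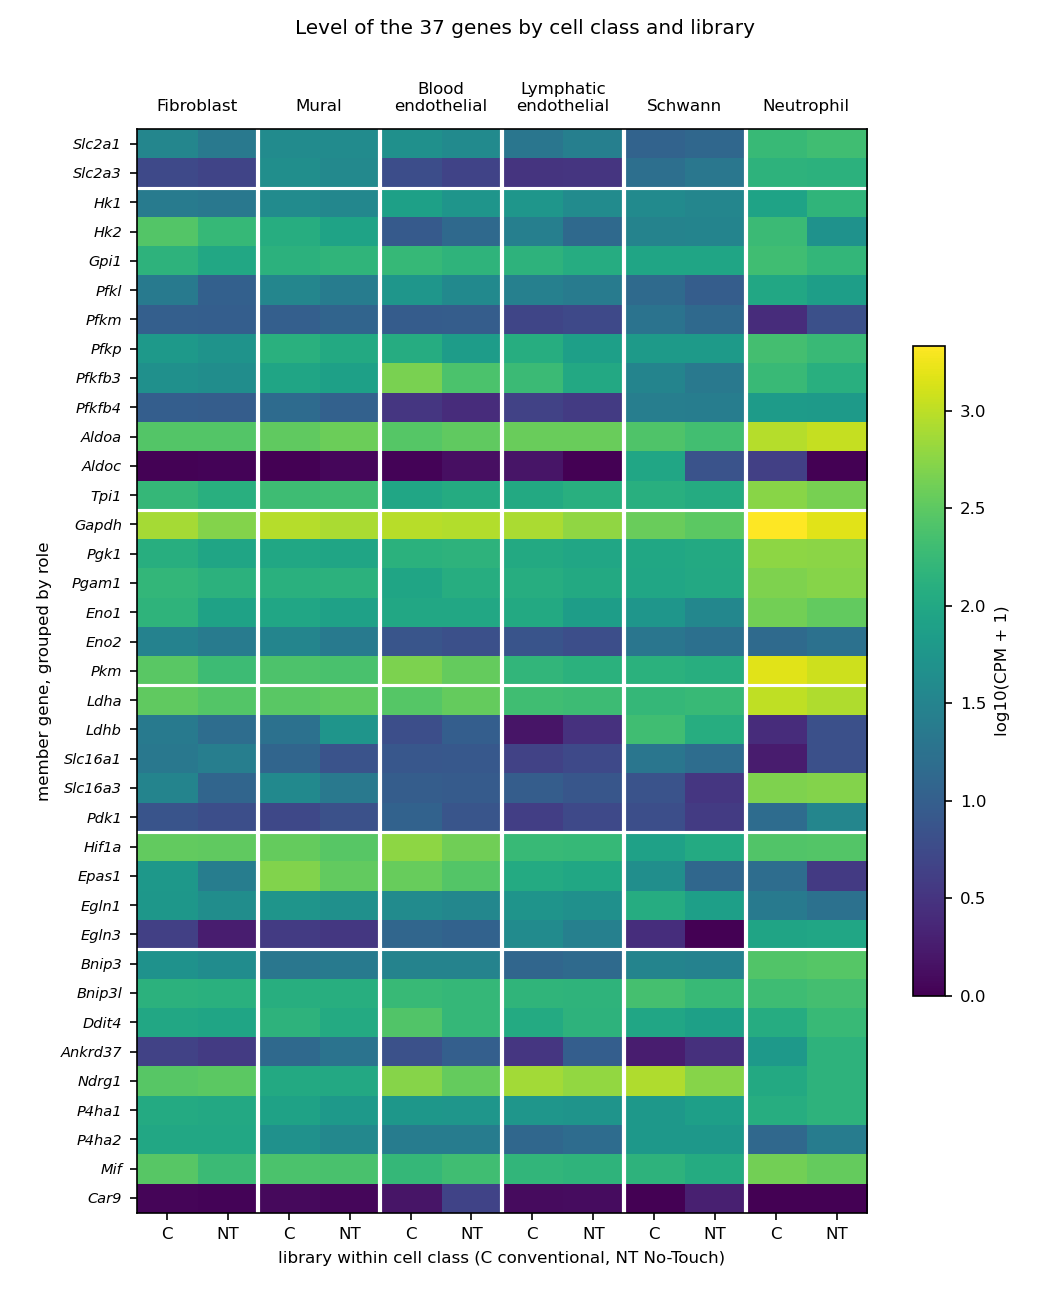
Level of each of the 37 genes as log10(CPM + 1) on the colour scale, with genes in rows grouped by role and, in columns, the conventional (C) and No-Touch (NT) library of 6 cell classes. The neutrophil columns are brightest for 22 genes in both libraries, while Pfkfb3 is brightest in blood endothelial cells (464 and 248) and Ldhb in Schwann cells (204 and 118).

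Cell classes also differed in which of several related genes they used. Shares within a family are shares of counted molecules, and each molecule gives 1 UMI whatever its length. Of the hexokinase UMIs, Hk2 made up 92.1% and 89.2% in fibroblasts and 74.4% and 71.7% in mural cells, whereas Hk1 made up 90.9% and 80.9% in blood endothelial cells. For glucose transporters, Slc2a1 made up 88.0% and 84.6% in fibroblasts. Its neuronal-type relative Slc2a3 (GLUT3) made up 52.5% (48.9 to 56.0) and 47.9% (43.8 to 52.1) in mural cells, near an even split. In Schwann cells it made up 60% and 62.7%, from means of only 0.12 and 0.198 Slc2a3 UMIs per cell. Within the mural class Slc2a3 was at 63.0 and 70.3 CPM in pericytes and at 19.7 and 15.4 CPM in smooth muscle cells. Pfkp was the main phosphofructokinase gene in all 6 classes, at 59.3% to 79.3%. Epas1 made up 58.6% and 53.7% of HIF alpha UMIs in mural cells, 37.9% and 40.4% in blood endothelial cells and 14.9% and 7.1% in fibroblasts. Ldhb made up 55.1% and 40.3% of lactate dehydrogenase UMIs in Schwann cells and at most 14.2% in the other classes.

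Over 9 families and 6 classes, the main gene was the same in both libraries in 49 of 54 pairs. These include near-even pairs, such as Hk1 in Schwann cells at 56.4% (44.7 to 67.6) and 51.9% (43.1 to 60.5). In fibroblasts the exception was the lactate transporter family. Slc16a3 made up 59.8% (58.6 to 60.9) of its UMIs in the conventional library, and Slc16a1 made up 69.1% (68.2 to 70.0) in the No-Touch library. The other exceptions were glucose transporters in mural cells, hexokinases in neutrophils, and lactate dehydrogenases and the Pfkfb family in Schwann cells. In neutrophils Hk2 made up 68.4% of hexokinase UMIs in the conventional library and 24.3% in the No-Touch library, where it rested on 18 UMIs.

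**Figure D3:**
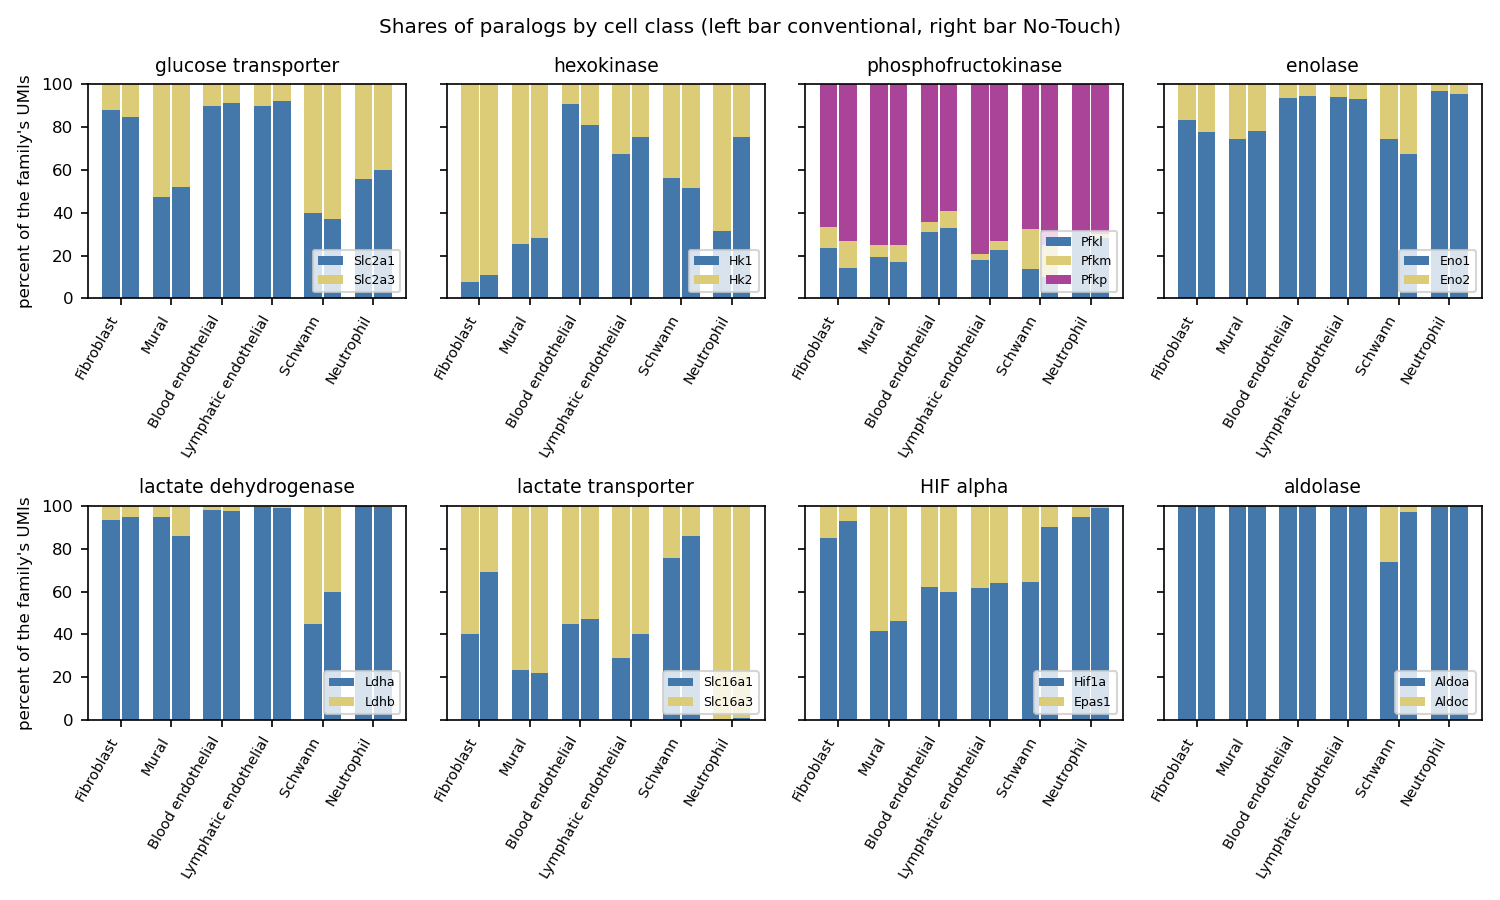
Percent of the UMIs of 8 gene families that each family member contributed, in 6 cell classes, with the left bar of each pair for the conventional and the right bar for the No-Touch library. Hk2 fills most of the hexokinase bars in fibroblasts (92.1% and 89.2%) and Hk1 those of blood endothelial cells (90.9% and 80.9%), and the lactate transporter bars of fibroblasts change their main gene.

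In fibroblasts 9 genes of the set had lower levels in the No-Touch library by the limit used here, and none had higher ones. A gene was tested when its mean over both libraries was at least 10 CPM, and counted when the libraries were at least 1.5 times apart on log2(CPM + 1). Of 29 genes tested, 9 were lower and 0 higher, while 3.16% of the 8143 genes tested were lower and 7.02% higher. The median log2 ratio was -0.32 for the set and 0.05 for all genes tested, and 26 of the 29 lay below 0, as did 42.5% of all genes. Since the set was chosen with earlier results of these data known, this contrast is a description and no independent test.

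The lower genes came from each of 6 role groups: uptake, upper and lower glycolysis, lactate handling, the HIF system and the hypoxia response. For uptake and the first steps, Slc2a1 measured 32.4 CPM (31.5 to 33.4) in conventional and 21.3 CPM (20.7 to 21.8) in No-Touch fibroblasts, a log2 ratio of -0.59. Hk2, whose product traps glucose in the cell as glucose-6-phosphate, was at 276 CPM (274 to 279) and 168 CPM (167 to 170), a log2 ratio of -0.71. Pfkl, a phosphofructokinase gene, was at 22.1 and 9.65 CPM (-1.12). In lower glycolysis, the enolase gene Eno1 was at 146 and 82.9 CPM (-0.81) and Pkm at 303 and 191 CPM (-0.66). Reads of Eno1 are uncertain, since the near-identical copy Eno1b held 1751 UMIs beside 58161 for Eno1 over both libraries. For lactate, Slc16a3 was at 31.0 CPM (30.0 to 31.9) and 11.4 CPM (11.0 to 11.8), a log2 ratio of -1.37, and Ldhb was at 23.0 and 14.5 CPM (-0.63). Of the HIF system, Epas1 was at 58.8 and 25.3 CPM (-1.19), and among the genes induced by hypoxia Mif was at 289 and 188 CPM (-0.62).

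Of the genes that were not counted, Gapdh (768 and 522 CPM, -0.56) and Gpi1 (142 and 98.4 CPM, -0.53), for glucose-6-phosphate isomerase, missed the limit narrowly. Others were close together. Aldoa was at 278 and 280 CPM, Hif1a at 336 and 331 CPM and P4ha2 at 99.4 and 99.3 CPM. Bnip3l, a mitophagy receptor, was at 136 and 128 CPM, Ddit4, an inhibitor of mTOR signalling, at 97.8 and 90.3 CPM and Ndrg1 at 290 and 312 CPM. Of the 7 tested hypoxia response genes in the set, Mif alone was counted as lower.

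The sum of counts weights deep cells more, and the count of genes depended on that. With each cell weighted equally 5 of the 9 remained past the limit (3.15% of all genes tested were lower). With each cell thinned to 3000 UMIs 4 remained past it (3.11% of all genes tested). On mm10 (GENCODE vM21), the genes past it both times were Hk2 (chromosome 6, 82725025 to 82774454), Pfkl (chromosome 10, 77986947 to 78010083), Slc16a3 (chromosome 11, 120948480 to 120960868) and Epas1 (chromosome 17, 86753700 to 86833410). Their log2 ratios in thinned cells were -0.76, -0.93, -1.18 and -1.19. Per cell, the No-Touch library did not hold fewer UMIs of every one of these genes. Mean UMIs per fibroblast were 6.17 and 5.88 for Hk2, 0.692 and 0.397 for Slc16a3 and 1.31 and 0.883 for Epas1, but 0.725 and 0.743 for Slc2a1 and 6.45 and 6.57 for Mif, in a library with more UMIs per cell. RNA from neutrophils, judged by S100a8 and S100a9, would carry 1.41% of the conventional and 0.83% of the No-Touch Slc16a3 level in fibroblasts. The median share of mitochondrial UMIs in fibroblasts was 2.22% and 1.63%. Markers of parathyroid cells, of which the libraries held 119 and 5, summed to 240 and 15.7 CPM in fibroblasts (4 markers). Those of mesothelial cells summed to 43.1 and 7.45 CPM and those of epithelial cells to 17.4 and 3.63 CPM (6 markers each), and no marker of these lists was at 0 in both libraries. The part of these in the differences was not tested.

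**Figure D4:**
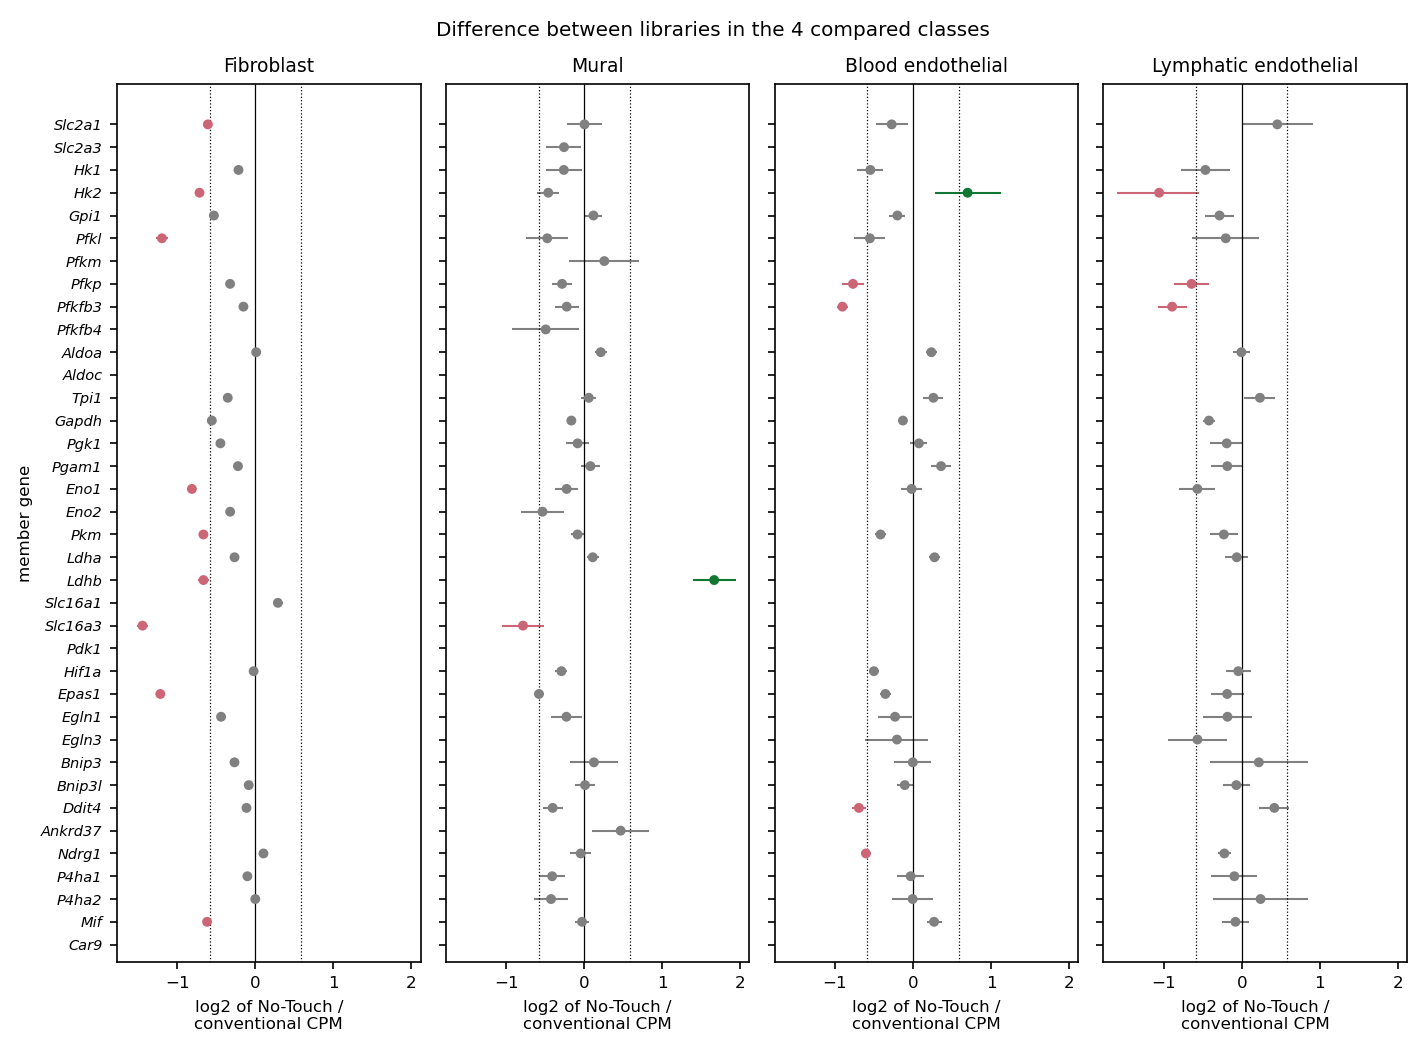
Log2 ratio of No-Touch over conventional CPM for each gene with a mean of at least 10 CPM in 4 cell classes, with exact 95% counting intervals as bars; dotted lines mark 1.5 times. Red points are counted as lower and green as higher on log2(CPM + 1), while the points are drawn without the added 1. In fibroblasts 9 are lower, and Ldhb in mural cells has the highest ratio drawn (1.61 on log2(CPM + 1)).

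Fibroblasts were split by markers into adventitial (Pi16, Dpp4), matrix (Postn, Cthrc1), inflammatory (Saa3, Ccl2) and other cells. Inflammatory cells were 36.1% of the fibroblasts in the conventional library and 19.1% in the other, and matrix cells 15% and 31.1%, and genes that define these subsets differ between the libraries. Of the set, 3 genes were lower in adventitial (Hk2, Ldhb and Epas1; 3.01% of all genes tested), 11 in matrix (4.12%), 10 in inflammatory (3.8%) and 8 in other fibroblasts (3.27%). In adventitial fibroblasts 1 was higher, Slc16a1 (16.5 and 25.6 CPM; 6.68% of all genes tested). None was higher in the matrix (6.44%), inflammatory (6.79%) or other subset (6.76%). The medians were -0.17, -0.45, -0.35 and -0.36 in the same order.

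Among matrix fibroblasts the conventional library had the highest levels of several genes. Eno1 was at 238 and 102 CPM there and at 85.4 and 70.4 CPM in adventitial fibroblasts. Pkm was at 441 and 231 CPM in the matrix and 184 and 152 CPM in the adventitial subset, and Mif at 410 and 219 against 153 and 129 CPM. Slc16a3 was at 52.6 and 18.1 CPM in matrix, 28.4 and 8.80 CPM in inflammatory and 11.6 and 5.30 CPM in adventitial fibroblasts. Epas1 was highest in the inflammatory subset, at 93.8 and 42.4 CPM. The 9 genes lower over all fibroblasts were chosen on these same cells, so their direction in the subsets is no independent evidence. Of the 9, 3 (Epas1, Pfkl and Slc16a3) were at least 1.5 times lower in all 4 subsets, although Pfkl and Slc16a3 were under 10 CPM on average in adventitial cells. Slc2a1 was at 17.4 and 19.0 CPM in adventitial cells. Whether the subsets differ from each other in this was not tested.

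**Figure D5:**
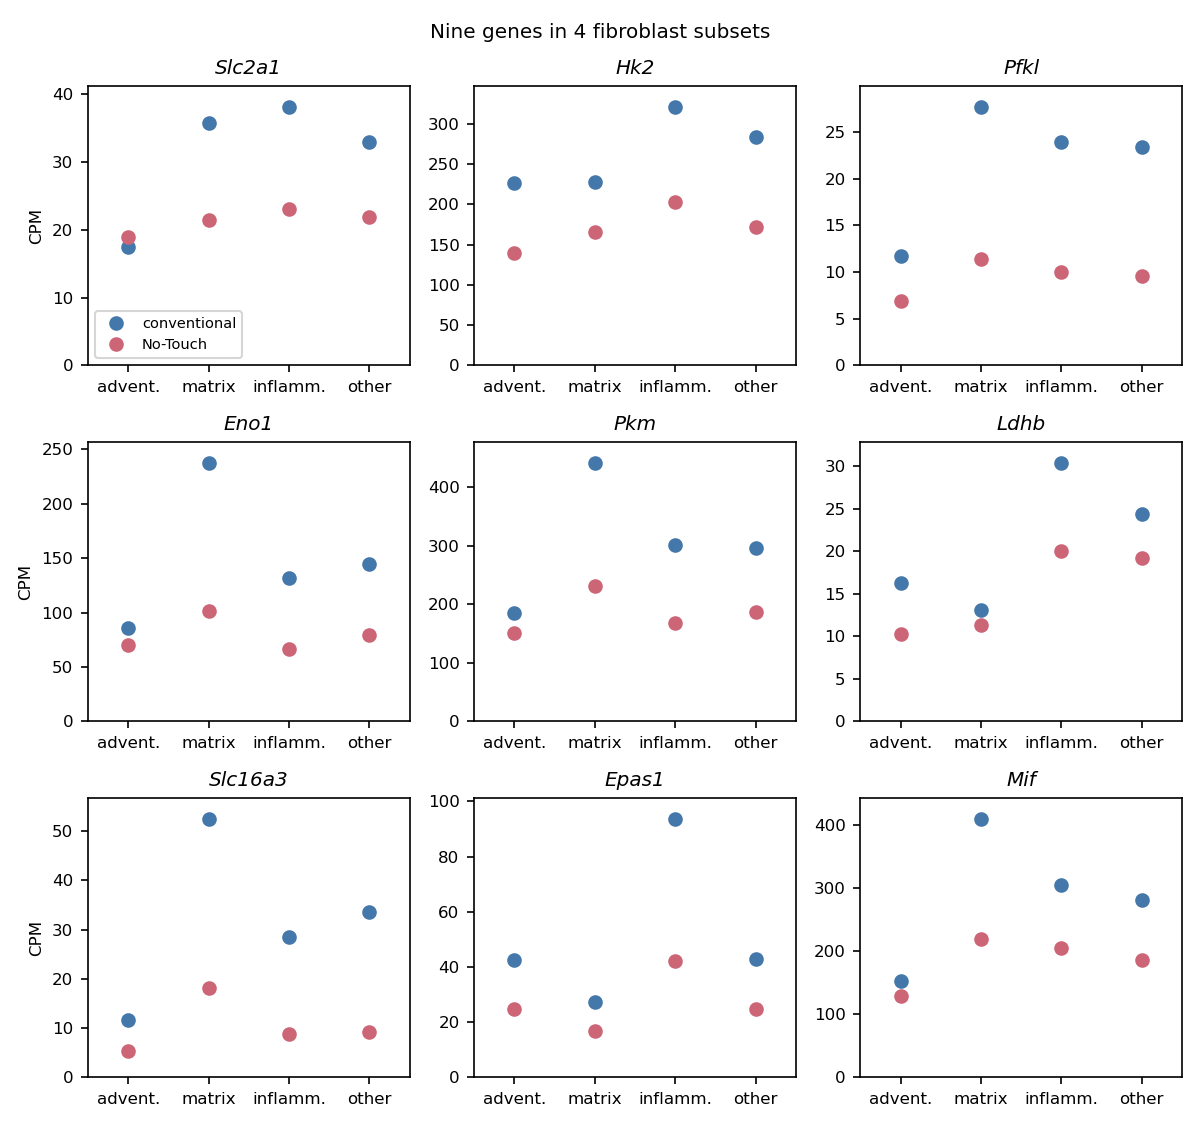
CPM (vertical axes from 0) of the 9 genes counted as lower over all fibroblasts, in adventitial, matrix, inflammatory and other fibroblasts, with 1 point per library. The No-Touch point is the lower one throughout except for Slc2a1 in adventitial cells (17.4 and 19.0), and Eno1 is farthest apart in matrix cells (238 and 102).

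In mural cells few genes of the set differed. Of 32 tested, 1 was higher (10.8% of 8439 genes) and 1 lower (6.07%), with a median of -0.19 against 0.07 for all genes. Slc16a3 was the lower one, at 37.2 CPM (33.4 to 41.3) and 21.6 CPM (18.4 to 25.2), a log2 ratio of -0.76. Ldhb was the higher one, at 16.7 CPM (14.2 to 19.5) and 53.0 CPM (48.0 to 58.4), a log2 ratio of 1.61. Epas1, at 501 and 335 CPM (-0.58), missed the limit narrowly.

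The Ldhb difference lay in smooth muscle cells, where it was at 17.9 and 81.3 CPM (70 UMIs in 325 cells and 380 UMIs in 267 cells). In pericytes it was at 18.1 and 9.11 CPM (75 and 24 UMIs). No single cell decided the smooth muscle value, since the cell with most held 2.63% of the No-Touch UMIs and the top 10 cells held 16.8%. In smooth muscle cells 4 genes of the set were lower (10.0% of all genes) and Ldhb alone was higher (13.6%). In pericytes 3 were lower (4.35%), namely Hk2, Ldhb and Slc16a3, and 0 higher (9.36%). Pericytes made up 48.4% and 38.7% of mural cells and smooth muscle cells 36.5% and 56.1%.

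In blood endothelial cells 4 of 26 genes tested were lower (6.16% of 8276 genes) and 1 higher (11.0%), with a median of -0.16 against 0.06. The lower ones included Pfkfb3, at 464 CPM (451 to 477) and 248 CPM (237 to 259), a log2 ratio of -0.90, and Pfkp, at 115 and 67.7 CPM (-0.76), so 2 genes acting on the phosphofructokinase step were lower. The others were Ddit4 (269 and 166 CPM, -0.69) and Ndrg1 (531 and 350 CPM, -0.60). Gapdh (958 and 877 CPM), Pgk1 for phosphoglycerate kinase (136 and 143 CPM) and Ldha (286 and 347 CPM) were within 1.5 times.

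The higher one was Hk2, at 7.79 CPM (6.24 to 9.61) and 12.7 CPM (10.4 to 15.3), a log2 ratio of 0.64. These levels are near those that RNA from fibroblasts would give. The 8 fibroblast markers together were at 1185 and 2485 CPM in blood endothelial cells, and Hk2 carried over in the same proportion would be at 13 and 12.6 CPM. That is 167% and 99.2% of the levels measured, so Hk2 in this class cannot be told from background.

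In lymphatic endothelial cells 3 of 26 genes tested were lower (6.34% of 8360 genes) and 0 higher (8.44%), with a median of -0.19 against -0.00. Pfkfb3 was at 188 CPM (174 to 202) and 101 CPM (90.9 to 112), a log2 ratio of -0.89, and Pfkp at 119 and 76.2 CPM (-0.64). Both genes were thus lower in the No-Touch library in both endothelial classes. Hk2 was at 26.8 and 12.8 CPM (-1.0), of which fibroblast RNA would carry 60.1% and 78.0%. Slc2a1 was at 19.5 and 26.8 CPM and Egln3, a prolyl hydroxylase that HIF itself induces, at 40.1 and 27.1 CPM, both within the limit.

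Over the 4 compared classes, 25 genes of the set were tested in all, 3 in none and 34 in at least 1, of which 13 were counted in at least 1. Of all genes tested in at least 1 of these classes, 32.1% were counted in at least 1. Hk2, Pfkp, Pfkfb3 and Slc16a3 were lower in 2 or more classes, 4 genes of the set against 3.53% of all genes. For Hk2 these were fibroblasts and lymphatic endothelial cells, and in the latter fibroblast RNA would carry most of its level, as given above. Hk2 and Ldhb were counted in both directions in different classes. Scaling by median of ratios moved the median of all genes from 0.07 to -0.06 in mural cells and from 0.06 to -0.08 in blood endothelial cells. All genes counted as higher or lower were then 7.38% and 9.20% in mural and 7.56% and 10.1% in blood endothelial cells. Of the set, 3 genes were then lower in mural, 7 (with 0 higher) in blood endothelial and 5 in lymphatic endothelial cells, where 8.32% of all genes were lower and 6.85% higher.

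In Schwann cells 5 of 32 genes tested were lower (8.17% of 9098 genes) and 0 higher (14.2%), with a median of -0.22 against 0.09. Aldoc was at 91.6 CPM (74.9 to 111), from 105 UMIs, and at 6.17 CPM (3.28 to 10.5), from 13 UMIs. Its share of aldolase UMIs was 26.0% and 2.8%. Ldhb, Eno1, Epas1 and Ndrg1 were the others, at 204 and 118, 55.9 and 33.7, 43.6 and 11.9, and 870 and 537 CPM. Fibroblast markers summed to 3060 and 5508 CPM in this class and its own 8 markers to 10600 and 7533 CPM, with 4 of the 8 at least 1.5 times lower. Cells within 0.05 of the limits of the class made up 7.33% and 19.3%. The part of these in the differences was not tested.

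In neutrophils, with 78 No-Touch cells, 5 of 31 genes tested were higher (23.7% of 5948 genes) and 1 lower (16.6%), with a median of 0.02. Slc2a1 was at 178 CPM (155 to 203) and 206 CPM (162 to 258), and Slc16a3 at 484 CPM (446 to 524) and 513 CPM (442 to 591), so counting intervals overlapped for both. Hk2 was the lower one, at 185 CPM (162 to 211) and 48.8 CPM (28.9 to 77.2). The higher ones were Hk1 (85.6 and 152 CPM), Pdk1, which inhibits entry of pyruvate into mitochondria, Ankrd37, Ddit4 and P4ha2, the last from 15 and 9 UMIs. Fibroblast markers summed to 2049 and 3250 CPM in neutrophils and the 7 markers of mononuclear phagocytes to 409 and 1364 CPM, and their part in these differences was not tested.

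Few other genes of the same pathways, from lists that hold none of the 37, were counted in fibroblasts, where 7.02% of all genes were higher and 3.16% lower. Of 8 tested genes of further glycolysis and pyruvate metabolism 1 was higher and 0 lower (median 0.21), and of 7 tested pentose phosphate genes 1 was higher and 0 lower (median -0.15). Of 19 tested hypoxia-induced genes 1 was higher and 1 lower (median -0.24). Bhlhe40, a transcription repressor, was at 207 and 407 CPM (0.97), and Adm, the vasodilator adrenomedullin, at 305 and 201 CPM (-0.60). Of 8 tested regulators of HIF, such as Vhl and Arnt, 0 were counted in either direction. Digestion can induce immediate early genes and heat shock genes. Of 20 such genes 2 were higher and 3 lower in fibroblasts (median -0.26, against 0.05 for all genes), and their part in the differences was not tested.

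Some of these hypoxia-induced genes also differed between the libraries in the vascular classes. Hilpda, which blocks the breakdown of stored fat, was at 104 and 44.8 CPM in mural cells (-1.20), 81.6 and 28.8 CPM in blood endothelial cells (-1.47) and 35.6 and 19.5 CPM in lymphatic endothelial cells (-0.83). In mural cells Angptl4, an inhibitor of lipoprotein lipase, was at 278 and 149 CPM (-0.90) and Plin2, a coat protein of lipid droplets, at 114 and 68.3 CPM (-0.73). Of 20 tested hypoxia-induced genes 4 were lower and 2 higher in mural cells (median -0.04; all genes 6.07% lower and 10.8% higher). In blood endothelial cells 5 of 20 were lower and 2 higher (median -0.09; all genes 6.16% and 11.0%). Vegfa, the vascular growth factor, went the other way in blood endothelial cells, at 12.5 and 30.9 CPM (1.24), as did Lox, at 21.4 and 50.9 CPM (1.21). Fibroblast markers summed to 1185 and 2485 CPM and mural markers to 344 and 825 CPM in this class. The part of RNA from those cells in the Vegfa and Lox levels was not tested. In lymphatic endothelial cells 3 of 19 tested hypoxia-induced genes were lower and 0 higher (all genes 6.34% and 8.44%), among them Stc1, at 246 and 122 CPM (-1.01). Of the 20 genes that digestion can induce, 5 were higher and 1 lower in blood endothelial cells (all genes 11.0% higher and 6.16% lower). In lymphatic endothelial cells 6 of 20 were higher and 0 lower (all genes 8.44% and 6.34%). Fos and Zfp36 of the 20 were higher in all 4 compared classes, and no gene of any of these lists was lower in all of them. The same count over all genes was not made. The part of the 20 genes in the differences of the 37 genes in these classes was not tested.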

How the data were processed

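The authors deposited 1 filtered matrix of UMI counts for each library, with 200851272 UMIs in 11899 barcodes (conventional) and 373319906 in 12450 (No-Touch). Cell Ranger 3.1.0 and mm10 were used per the submitters' processing notes, while the file headers name Cell Ranger 6.0.0; which one applies was not settled. The labels do not settle the 10x kit version.

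Groups were taken from the sample titles. Filters required 500 genes, 1000 UMIs and no more than 10% mitochondrial UMIs (10458 and 11525 barcodes passed). The highest Scrublet scores, 0.8% per 1000 cells, were removed as doublets (875 and 1063), since its automatic threshold marked 241 and 0. A cell entered a class with at least 3 markers detected, a score of 0.3 and a margin of 0.1 over the next class; these settings were chosen after class sizes were seen. UMIs were summed per class and library and scaled to CPM. Ratios are log2 of No-Touch over conventional CPM + 1. Intervals are exact (Garwood, Clopper-Pearson, conditional for ratios). A carried level is a gene's level in the source class times the ratio of that class's marker sums. Beyond the set, from the lists of related genes up to 4 genes per class with the largest ratio and at least 20 CPM were named, not all of them here. Listed genes counted in the same direction in all 4 compared classes were also named. Other names, subsets and single values were chosen after the values were seen. The genes and lists were chosen with earlier results of these data known. The calling step was checked on simulated data. The sources used here do not say whether counting used the strand. scanpy 1.11.5, edgeR 4.0.16 (TMM factors only) and RefSeq promoters on GRCm38.p6 were used. Alternatives covered scaling, filters, gates, doublets, depth, pseudocount, fold and subset weights.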

Additional observations from a re-analysis of the deposited data

Results flagged for a closer look

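Hk2 went in opposite directions between the libraries in different cell classes: its log2 ratio was 0.64 in blood endothelial cells, -0.71 in fibroblasts and -1.0 in lymphatic endothelial cells. The difference between classes was not tested. In blood endothelial cells its levels, 7.79 and 12.7 CPM, are near the 13 and 12.6 CPM that fibroblast RNA would carry over, and over all alternatives its log2 ratio there ranged from 0.063 to 1.10. In lymphatic endothelial cells fibroblast RNA would carry most of the Hk2 level in both libraries.

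Ldhb was higher in No-Touch mural cells, with a log2 ratio of 1.61, and lower in No-Touch fibroblasts, with -0.63. This difference between classes was not tested either. Over all alternatives the mural value ranged from 1.24 to 1.78 and the fibroblast value from -0.66 to -0.43. Within mural cells it was at 17.9 and 81.3 CPM in smooth muscle cells and at 18.1 and 9.11 CPM in pericytes.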

How the results depend on the processing

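Of 336 alternative values of the counts and medians 260 stayed close to the value reported, 76 moved and 0 reversed. By the rule used, only medians and single genes could be labelled as reversed, so the 0 says nothing about the counts. Of 267 values for single genes 186 stayed, 81 moved and 0 reversed. These genes were picked because they passed the limit in these same cells, so their unchanged direction is no independent evidence. The 22 genes highest in neutrophils and the 49 of 54 main paralogs stayed close. Classes follow below as fibroblast, mural, blood and lymphatic endothelial, and "related" stands for the other pathway lists pooled. Of the related genes 1, 4, 5 and 3 were lower and 3, 5, 4 and 0 higher, with medians of -0.11, 0.03, -0.01 and 0.00. Of all genes tested, 3.16%, 6.07%, 6.16% and 6.34% were lower and 7.02%, 10.8%, 11.0% and 8.44% higher. Percentages beside counts below are shares of all genes tested at the same setting.

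For the 37 genes, TMM scaling gave 3 lower in mural cells (8.53% of all genes) and a fibroblast median of -0.35. In blood endothelial cells it gave 7 lower (8.80%) and 0 higher (8.21%). Median-of-ratios scaling gave the same counts and median, 5 lower in lymphatic endothelial cells (8.32%) and a blood endothelial median of -0.29. Of all genes 9.20% were then lower in mural, and 10.1% lower and 7.56% higher in blood endothelial cells. With no filter on low values, 2 were lower in mural, 4 higher in blood and 2 higher in lymphatic endothelial cells, and the fibroblast median was -0.27. With a mean of at least 50 CPM, 4 were lower in fibroblasts (3.55%) and 0 higher in blood endothelial cells (8.20%). In mural cells 0 were lower (7.96%) and 0 higher (7.74%) at that mean. With doublets kept 0 were higher in blood endothelial cells (10.5%). With at most 5% mitochondrial UMIs 2 were lower in mural cells (5.91%), with the stricter gate 3 (5.52%) and with the looser gate 2 (5.94%). The stricter gate gave 0 higher in blood endothelial cells (9.91%). Thinned to 3000 UMIs, 4 were lower in fibroblasts (median -0.25), 5 lower and 2 higher in mural, 0 higher in blood and 3 higher in lymphatic endothelial cells; all genes were then 3.11%, 7.89%, 8.06% and 12.6% lower and 7.33%, 14%, 15.1% and 14.1% higher by class. With each cell weighted equally, 5 of the 37 were lower in fibroblasts (median -0.29; 3.15% of all genes) and 0 higher in blood endothelial cells (10.8%). With a pseudocount of 10 the fibroblast median was -0.28, with 0 lower in mural (4.05%) and 0 higher in blood endothelial cells (6.52%). At a fold of 2, 3, 0, 0 and 1 were lower by class (1.06%, 1.74%, 1.39% and 1.27% of all genes). In blood endothelial cells 0 were higher at that fold (3.54%).

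For related genes, the fibroblast median was -0.14 with TMM, -0.14 with median of ratios, -0.051 with no filter, -0.15 at 50 CPM, -0.024 thinned, -0.0098 with equal cell weight, -0.076 with a pseudocount of 10 and -0.068 without inflammatory fibroblasts. The blood endothelial median was -0.15 with median of ratios. Lower in fibroblasts were 4 with no filter (2.64% of all genes). With at most 5% mitochondrial UMIs, thinned or with equal cell weight 0 were lower (3.17%, 3.11% and 3.15%). The count was also 0 with a pseudocount of 10 (1.98%), a fold of 2 (1.06%), subsets weighted equally (2.98%) or without inflammatory fibroblasts (3.13%). Higher in fibroblasts were 1 at 50 CPM (7.87%), with a pseudocount of 10 (4.08%) and with subsets weighted equally (6.04%), and 0 at a fold of 2 (1.36%). The related lists hold 24, 26, 11 and 7 genes. In mural cells 3 were higher with TMM or median of ratios (7.96% and 7.38%) and 11 with no filter (12.4%). There 2 were higher at 50 CPM (7.74%) or a pseudocount of 10 (6.14%). At a fold of 2, 1 was higher (3.51%) and 2 lower (1.74%). In blood endothelial cells 1 was higher at 50 CPM (8.20%), and 3 were lower thinned (8.06%) and 1 at a fold of 2 (1.39%). In lymphatic endothelial cells 6 were lower and 2 higher with no filter, 4 higher thinned and 1 higher with equal cell weight. The cause was not tested for any of these. The alternatives on subset weights, without inflammatory fibroblasts and with neutrophil RNA subtracted were chosen after seeing the data. Of the 37 genes, 6 had the larger share of cells with a UMI in No-Touch fibroblasts after thinning and 31 without it, at a depth ratio of 1.69. The same count over all genes was not made, so nothing is concluded about the set from it. No paired analysis was possible because each group is 1 library.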

Other observations

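Perineurial-like cells, which ensheathe nerve bundles and carry Itgb4 and Cldn1, numbered 48 and 20 and so were too few to be described with the other classes. They were picked out after their values were seen. In them Slc2a1, the glucose transporter of barrier tissues, measured 919 CPM (846 to 996) in conventional and 592 CPM (511 to 681) in No-Touch grafts, above the 178 and 206 CPM of neutrophils. Ndrg1 was at 1286 and 586 CPM and the lactate transporter Slc16a1 at 113 and 208 CPM. Single cells weigh heavily here, since 1 cell held 17.1% of the No-Touch Slc2a1 UMIs and 25.0% of those of Slc16a1.

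Mononuclear phagocyte-like cells (37 and 72) were also too few. Their 15 glycolytic enzyme genes summed to 4819 CPM in the conventional and 3338 CPM in the No-Touch library, between fibroblasts and neutrophils.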
